A study of Homo sapiens with 2 samples.

Results

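Box H/ACA snoRNAs and scaRNAs were examined as they appeared in 2 small RNA libraries of A549 cells. They were taken as the rows of type snoRNA whose gene name starts with SNORA, ACA or SCARNA. The rule found 177 of the 748 snoRNA rows and of the 5475 rows of the count table. The table holds identifiers and no gene names, so names were joined from the GENCODE version 29 annotation, by transcript identifier for 148 rows and by identical sequence for 29. The 177 rows carry 155 distinct names, of which 133 are SNORA and 22 are SCARNA names, and no name starts with ACA alone. Of the other snoRNA rows, 236 have a SNORD name, 200 a name numbered after an Rfam family, 2 another name and 133 no name.

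A549 is a human lung adenocarcinoma cell line, grown here in DMEM with fetal calf serum. Cells were held for 24 h before lysis at 20% oxygen (normoxia, 1 library) or at 1.2% oxygen (hypoxia, 1 library), and the labels name no genetic change or drug for either. Each condition has 1 library and no replicate, so the effect of oxygen cannot be tested and no p-value is given. All intervals below are 95% intervals that cover counting error only, and reads amplified by PCR without molecular identifiers are not independent molecules.

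Box H/ACA snoRNAs are nuclear RNAs that fold into a pair of hairpins, one followed by box H (ANANNA) and the other by box ACA. They work in particles with the pseudouridine synthase dyskerin, and bases in an internal loop pair with ribosomal RNA and place the uridine to be turned into pseudouridine. Small Cajal body RNAs (scaRNAs) carry the same boxes, C/D boxes or both, and guide modification of spliceosomal snRNAs. Most human members are cut out of introns of host genes, many of which encode ribosomal proteins and translation factors. A count in these libraries is a sequenced read assigned to a row, and since the libraries were made from size-selected short inserts and the table gives no read positions, intact RNA and fragments cannot be told apart.

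The sequences below, as they stand in the count table, are shown for the most abundant member (SNORA73A), for another abundant member (SNORA48), for the most abundant scaRNA (SCARNA4) and for members with high (SNORA28, SNORA32, SNORA75, SNORA21) or low (SNORA79) ratios of hypoxia over normoxia. Capitals mark the ANANNA match nearest the middle, within 35% to 65% of the length, and the last ACA where at most 4 bases follow it, both searched on the strand of the RNA. Positions are those of hg19 as in the table, and strands are those of GENCODE.
SNORA73A: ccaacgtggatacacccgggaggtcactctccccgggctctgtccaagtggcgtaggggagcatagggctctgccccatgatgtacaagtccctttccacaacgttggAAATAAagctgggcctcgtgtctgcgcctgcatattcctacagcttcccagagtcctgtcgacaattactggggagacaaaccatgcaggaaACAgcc
SNORA48: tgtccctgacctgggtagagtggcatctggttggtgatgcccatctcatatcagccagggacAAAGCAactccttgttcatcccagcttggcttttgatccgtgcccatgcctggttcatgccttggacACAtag
SCARNA4: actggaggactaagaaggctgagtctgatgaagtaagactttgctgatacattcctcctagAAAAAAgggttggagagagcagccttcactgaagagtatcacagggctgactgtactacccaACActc
SNORA28: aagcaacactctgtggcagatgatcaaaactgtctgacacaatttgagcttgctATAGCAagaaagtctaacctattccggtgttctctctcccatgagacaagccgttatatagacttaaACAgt
SNORA32: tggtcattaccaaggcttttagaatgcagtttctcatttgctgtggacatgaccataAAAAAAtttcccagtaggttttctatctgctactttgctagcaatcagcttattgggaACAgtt
SNORA75: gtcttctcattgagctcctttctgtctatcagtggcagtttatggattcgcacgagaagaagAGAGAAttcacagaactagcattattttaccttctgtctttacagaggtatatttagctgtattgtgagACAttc
SNORA21: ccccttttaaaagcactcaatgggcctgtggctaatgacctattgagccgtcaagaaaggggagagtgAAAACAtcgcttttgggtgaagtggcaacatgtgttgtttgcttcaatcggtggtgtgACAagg
SNORA79: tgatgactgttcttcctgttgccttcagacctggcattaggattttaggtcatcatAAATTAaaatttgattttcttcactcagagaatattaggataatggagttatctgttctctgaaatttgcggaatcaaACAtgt
SNORA73A lies at chr1:28833878-28834083, plus strand, in an intron of RCC1. SNORA48 (chr17:7478031-7478165, plus strand) lies within EIF4A1, and SCARNA4 (chr1:155895749-155895877, minus strand) in an intron of KHDC4. SNORA28 (chr14:103804186-103804311, plus strand) lies in an intron of EIF5, SNORA32 (chr11:93464145-93464265, minus strand) within TAF1D and SNORA75 (chr2:232320511-232320647, minus strand) in an intron of NCL. SNORA21 lies at chr17:37009116-37009247, minus strand, within RPL23, and SNORA79 at chr14:81669039-81669178, minus strand, in an intron of GTF2A1.

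The letters of both boxes were more frequent in the SNORA rows than in the SNORD rows. The middle ANANNA was present in 95.4% of the 151 SNORA rows and in 88 of 236 SNORD rows (37.3%), and in 59.2% of all snoRNA rows. An ACA with at most 4 bases after it was present in 139 SNORA rows (92.1%), in each of the 17 H/ACA scaRNA rows, in 18 SNORD rows (7.63%) and in 38.8% of all snoRNA rows. These are letter matches and not mapped boxes. The SNORA rows were 68 to 249 bases long (median 134) and the SNORD rows 63 to 237 (median 78).

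Some members hold a mature miRNA within their own sequence, and 4 of them are shown with that stretch in capitals, found by a search for the RefSeq mature sequence (GRCh38.p14).
SNORA81: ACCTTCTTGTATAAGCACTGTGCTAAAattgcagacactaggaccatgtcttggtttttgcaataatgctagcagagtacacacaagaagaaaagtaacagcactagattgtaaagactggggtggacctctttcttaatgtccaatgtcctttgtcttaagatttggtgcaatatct
SNORA36B: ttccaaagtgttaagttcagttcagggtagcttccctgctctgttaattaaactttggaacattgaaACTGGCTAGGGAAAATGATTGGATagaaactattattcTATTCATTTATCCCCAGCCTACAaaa
SNORA2C: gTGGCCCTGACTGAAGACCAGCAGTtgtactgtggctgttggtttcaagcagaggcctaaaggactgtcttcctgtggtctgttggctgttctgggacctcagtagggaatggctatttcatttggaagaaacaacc
SNORA84: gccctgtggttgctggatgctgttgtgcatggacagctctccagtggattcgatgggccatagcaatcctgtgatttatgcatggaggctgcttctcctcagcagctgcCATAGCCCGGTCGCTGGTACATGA
SNORA81 (chr3:186504464-186504641, plus strand) begins with miR-1248, at bases 1 to 27. SNORA36B (chr1:220373888-220374018, minus strand) holds miR-664a-5p at bases 68 to 91 and miR-664a-3p at bases 106 to 128. SNORA2C (chr12:49048165-49048301, minus strand) holds miR-1291 at bases 2 to 25, and SNORA84 (chr9:95054743-95054875, minus strand) ends with miR-3651, from base 110 to base 133. The mature miRNAs, with the seed (bases 2 to 8) in capitals, are as follows, and no seed is shared among them.
miR-1248: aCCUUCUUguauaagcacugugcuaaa
miR-664a-5p: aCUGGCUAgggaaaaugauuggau
miR-664a-3p: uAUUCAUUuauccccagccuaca
miR-1291: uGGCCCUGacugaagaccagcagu
miR-3651: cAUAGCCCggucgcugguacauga

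The libraries differed in depth, with 6449337 counts in normoxia and 13115226 in hypoxia, so that a count of 0 allows up to 0.465 and 0.229 CPM (counts scaled to a total of 1e6), at 3 counts. With the deeper library thinned to the depth of the other, 7 of the 9 members described below were past the size rule, and 5.84% of all features. The 177 rows received 27126 counts in normoxia and 66679 in hypoxia. Their share of all counts was 0.421% in normoxia (Clopper-Pearson interval 0.416% to 0.426%) and 0.508% in hypoxia (0.505% to 0.512%). Of all snoRNA counts they took 8.32% (8.23% to 8.42%) and 8.50% (8.44% to 8.57%). Rows without a name held 29.1% and 28.1% of snoRNA counts, and Rfam-numbered rows 2.65% and 2.67%. Any H/ACA RNAs among those rows are left out of the class. By its shares, the class was higher in hypoxia against the whole library by a log2 ratio of 0.27 (0.25 to 0.29), and by 0.032 (0.011 to 0.052) against all snoRNA counts. The interval of the SNORD rows, with a log2 ratio of 0.26 (0.25 to 0.27) against all counts, overlapped it. Ribosomal RNA rows were at 0.80 and spliceosomal and other snRNA rows at 0.43 on the same scale, and the part of such other RNA in the shares was not tested.

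By subclass, the 151 SNORA rows gave 88.1% of the counts of the class in normoxia and 89.0% in hypoxia. Their sum was at 3707 CPM and 4524 CPM, a log2 ratio of 0.29 (0.27 to 0.31), and at 0.045 when scaled by snoRNA counts. The 17 rows of H/ACA scaRNAs had 339 CPM and 387 CPM, a log2 ratio of 0.19 (0.12 to 0.26), which was at -0.0525 (-0.125 to 0.021) on the snoRNA scale. The 5 rows of mixed scaRNAs, which carry both kinds of box, had 89.3 CPM and 101 CPM (log2 ratio 0.18, 0.04 to 0.32, and -0.062 on the snoRNA scale). The 3 rows of scaRNAs with C/D boxes alone, which the name rule includes although they are no H/ACA RNAs, had 70.2 CPM and 72.4 CPM (log2 ratio 0.04, -0.12 to 0.21). The direction of the last group turned with the scaling, to -0.20 on the snoRNA scale, -0.072 with TMM and -0.058 with DESeq2 size factors. The last of the 177 rows, with 2 counts in normoxia and 1 in hypoxia, belongs to a scaRNA of no assigned box type.

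Counts of the class were spread unevenly. SNORA73A and SNORA73B, the U17 RNAs, are known for a role in processing of the 18S rRNA precursor rather than in modification. They were the most abundant members in both libraries, with 3843 and 8009 counts for SNORA73A (596 CPM and 611 CPM) and 2219 and 4937 counts for SNORA73B (344 CPM and 376 CPM). Together they gave 22.4% of the class in normoxia (21.9% to 22.9%) and 19.4% in hypoxia (19.1% to 19.7%). The log2 ratio of the pair was 0.07 (0.03 to 0.11) and became -0.17 on the snoRNA scale, -0.044 with TMM and -0.031 with DESeq2 size factors, whereas the other 175 rows were at 0.33 (0.30 to 0.35) and stayed above 0 under each of the 5 scalings. The pair shares 93.2% of aligned bases, so reads may be split between them.

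The 10 rows with the most counts held 44.1% of the class in normoxia and 41.3% in hypoxia. After the U17 pair, SNORA48 followed with 1050 and 2516 counts (163 CPM and 192 CPM, log2 ratio 0.24, 0.13 to 0.34), and its ratio was -0.0051 on the snoRNA scale and 0.12 with TMM. SCARNA4, a scaRNA with H/ACA boxes, had 883 and 1614 counts, that is 137 CPM and 123 CPM (-0.15, -0.27 to -0.03). SNORA33, from an intron of the ribosomal protein gene RPS12, had 790 and 2261 counts (122.5 CPM and 172 CPM, log2 ratio 0.49). SNORA8 had 752 and 1205 counts and stood at 117 CPM and 91.9 CPM. Per 100 bases of annotated length, which counts of fragments need not follow, the order in normoxia was SNORA73A (289 CPM), SNORA73B (169), SNORA48 (121), SCARNA4 (106), SNORA33 (94.2) and SNORA8 (83.9). In hypoxia SNORA21 (135 CPM per 100 bases) and SNORA33 (133) stood between SNORA48 (142) and SCARNA4 (95.4), and SNORA8 was in place 10.

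**Figure D1:**
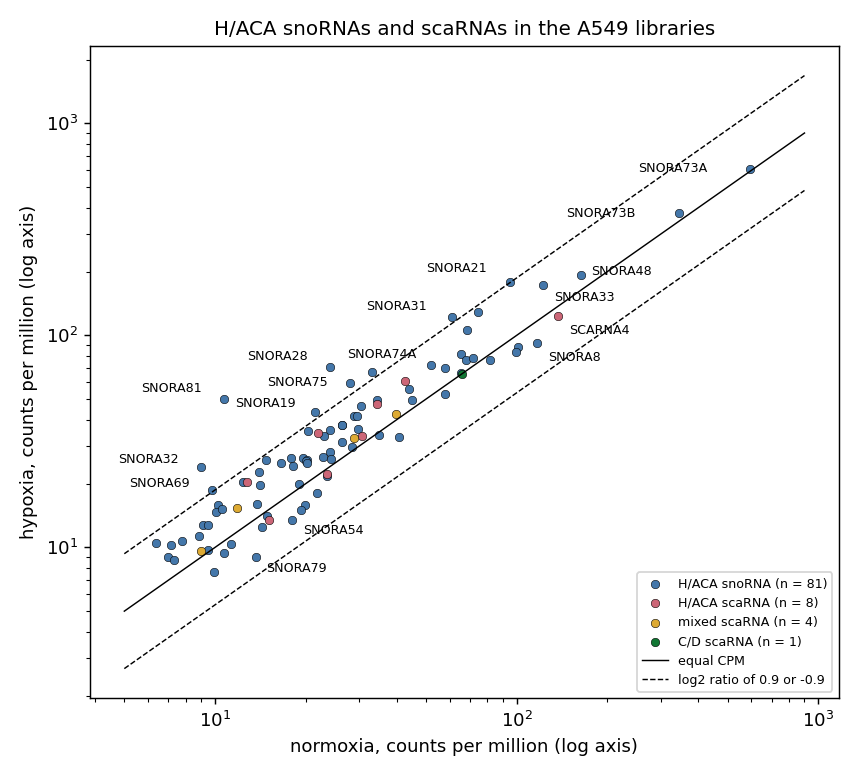
CPM of the 94 members past the expression filter in normoxia (x axis) and hypoxia (y axis), both on log axes, 1 point per member, coloured by subclass. The solid line marks equal CPM and the dashed lines a log2 ratio of 0.9 in either direction; SNORA81 lies farthest above the upper line, and no point lies below the lower one.

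For single members, log2 ratios of hypoxia over normoxia were taken from CPM of all counts with a prior count of 2. A member with a mean log2 CPM above 3 passed the expression filter, and a ratio of at least 0.9 in either direction was called by size. These ratios are scaled by all counts unless another scale is named, and an interval beside a ratio is its counting interval without the prior. The filter was passed by 94 of the 177 rows, with at least 41 counts in normoxia and 100 in hypoxia, and the other 83 rows held 1112 and 2660 counts. Of the 94 rows, 9 were called higher in hypoxia (9.57%), beside 5.74% of the 1639 features of all kinds that passed. With scaling by snoRNA counts, 3 rows (3.19%) were called higher, beside 2.68% of all features, and with TMM 4 rows (4.26%), beside 3.84%, so that the share in the class lay near that of all features. With no filter on low counts, 17 of the 177 rows were called higher (9.6%), a lower share than the 18.1% of all features. Under the main setting none was called lower, beside 3.29% of all features, and 2 SNORD rows of 145 were called higher and none lower. The highest ratio that was not called was that of SNORA58B, at 0.80, and the lowest called was that of SNORA21, at 0.91.

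The ratio was above 0 in 72 of the 94 rows (76.6%), in 61.7% of all features and in 88.3% of the SNORD rows. With scaling by snoRNA counts, the split moved to 54 of 94 (57.4%), since that scale lowers each ratio by about 0.24, and the 18 members between 0 and that shift turned below 0. Of the members described here these were SNORA48, SNORA73A, SNORA73B, SNORA71B, SNORA4, SNORA61, SNORA15, SCARNA10, SCARNA11, SCARNA6 and SCARNA12 and the second row of SNORA65. The median ratio was 0.35, beside 0.13 for all features and 0.27 for the SNORD rows. Scaling by snoRNA counts put the median of the members at 0.11 and that of all features at -0.11. Members differed from each other by more than the counting error. The SD of their ratios was 0.45, and the root mean square counting error was 0.15, while the SNORD rows had an SD of 0.27 with a counting error of 0.11. All features past the filter had an SD of 0.54, wider than that of the class. The counting interval lay above 0 for 50 members (53.2%, beside 41.4% of all features), below 0 for 8 (8.51%, beside 25.2%) and held 0 for 36. This split moved with the scale, to 30 above 0 (31.9%, beside 21% of all features) and 22 below (23.4%, beside 42.3%) with scaling by snoRNA counts. With TMM it was 40 above (42.6%, beside 30.3% of all features) and 14 below (14.9%, beside 32.8%). With DESeq2 size factors it was 41 (43.6%, beside 31.3%) and 14 (14.9%, beside 31.8%). Scaling by miRNA counts gave 61 above (64.9%, beside 50.3%) and 3 below (3.19%, beside 18.5%). The 94 rows hold 92 distinct sequences, since SNORA15B-1 and SNORA15B-2 share one sequence and the same counts, and SNORA65 is listed under a second identifier.

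**Figure D2:**
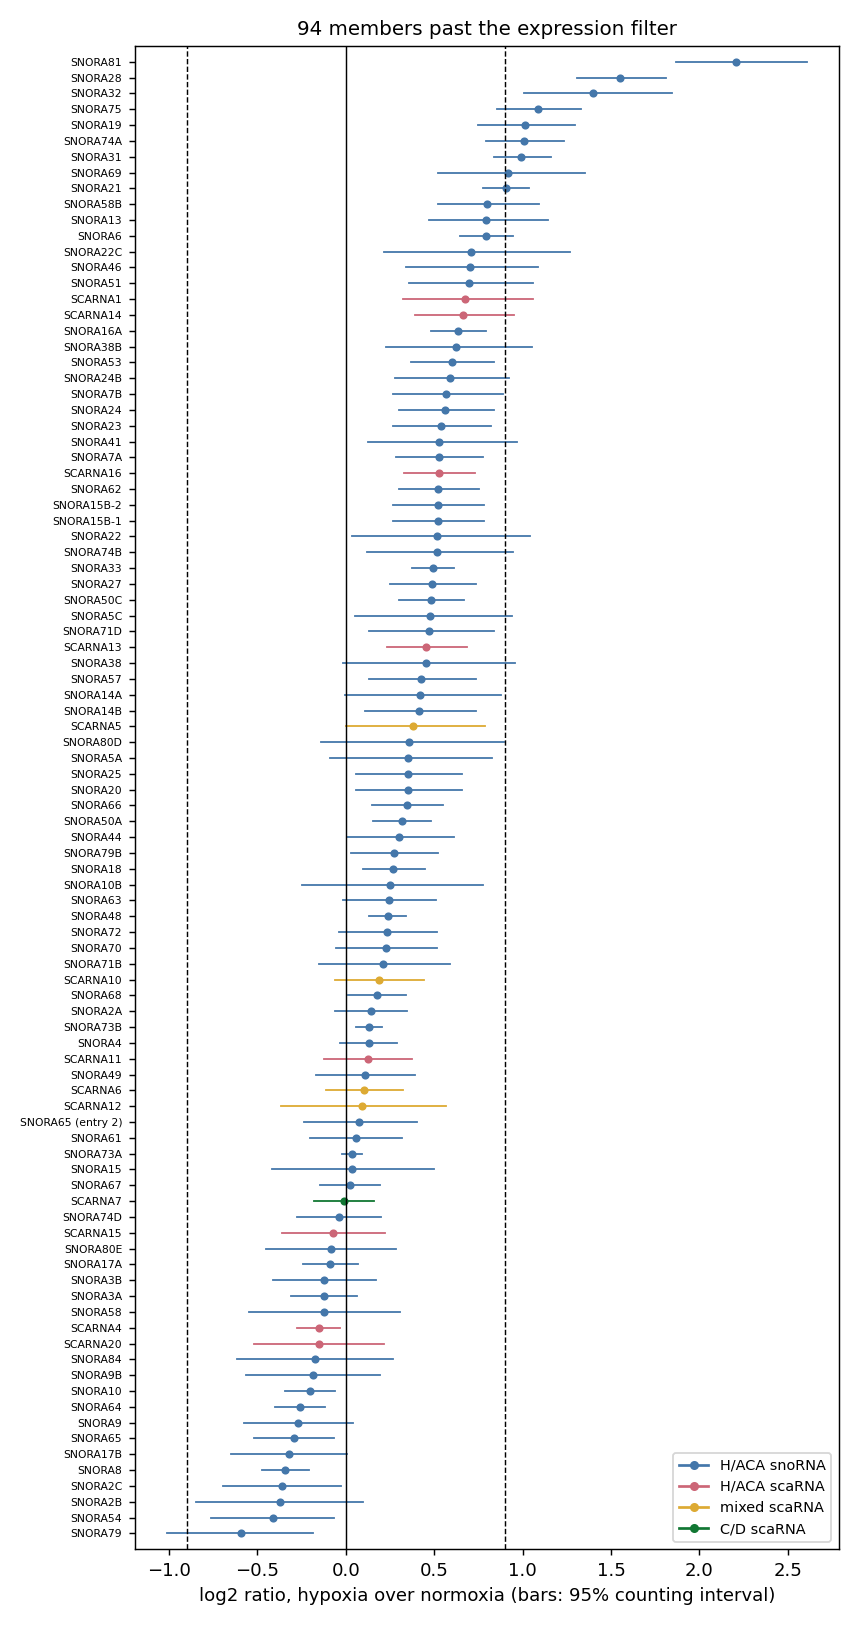
Log2 ratio of hypoxia over normoxia (x axis) for each of the 94 members past the filter, ordered by ratio, with the 95% counting interval as a bar and colour for the subclass. The dashed lines mark 0.9 in either direction; SNORA81, SNORA28 and SNORA32 have intervals wholly above the upper line, and no interval lies wholly below the lower one.

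**Figure D3:**
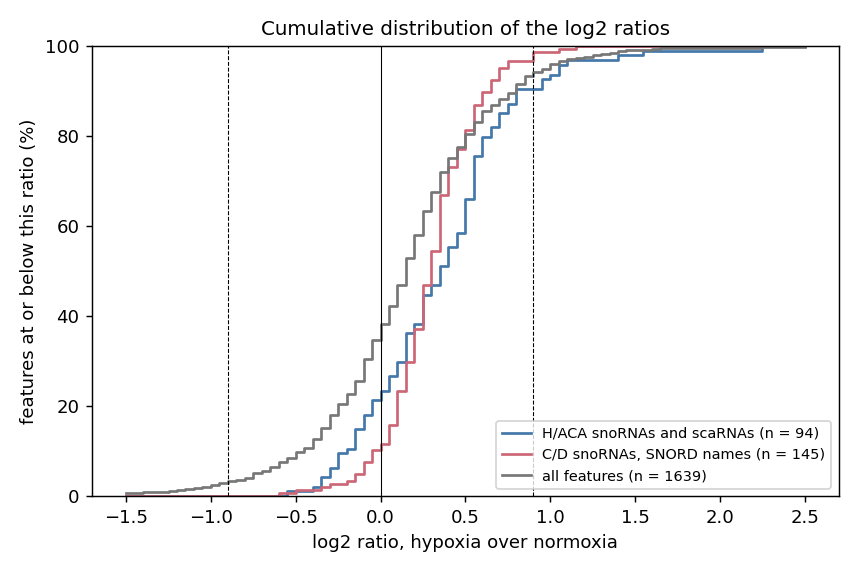
Cumulative share of features (y axis, percent) at or below each log2 ratio of hypoxia over normoxia (x axis) for the 94 H/ACA snoRNA and scaRNA rows, 145 SNORD rows and 1639 features of all kinds. The SNORD curve is the steepest (SD 0.27), and the curve of the H/ACA class is wider (SD 0.45) and has its median at 0.35. All features have the widest spread (SD 0.54).

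The widest difference was that of SNORA81, whose host EIF4A2 encodes an RNA helicase of translation initiation. It had 69 counts in normoxia (10.7 CPM) and 657 in hypoxia (50.1 CPM), a log2 ratio of 2.21 (1.87 to 2.61), and went from place 77 to place 27 among the member rows. SNORA28, from an intron of the initiation factor gene EIF5, had 155 counts (24.0 CPM) and 928 counts (70.8 CPM), a log2 ratio of 1.55 (1.31 to 1.81). SNORA32, from TAF1D, which encodes a subunit of a factor for RNA polymerase I, had 58 counts (8.99 CPM) and 315 counts (24.0 CPM), with a ratio of 1.40 (1.01 to 1.85). These 3 SNORA members were the only ones called higher under each of the 5 scalings, by all counts, snoRNA counts, miRNA counts, TMM and DESeq2 size factors.

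The other 6 called members stood closer to the threshold. SNORA75, from an intron of the nucleolin gene NCL, had 181 and 784 counts (28.1 CPM and 59.8 CPM, log2 ratio 1.09, 0.86 to 1.33). SNORA19, from an intron of the initiation factor gene EIF3A, had 138 and 569 counts (21.4 CPM and 43.4 CPM, log2 ratio 1.01, 0.75 to 1.30). SNORA74A, also called U19, had 214 and 877 counts (33.2 CPM and 66.9 CPM, log2 ratio 1.01, 0.79 to 1.23) and lies in an intron of MATR3, where the annotation also places SNHG4. In these 3 members, as in every called member, the whole interval lay above 0, which held for 41.4% of all features.

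SNORA31, from TPT1, which encodes the translationally controlled tumor protein, had 395 and 1602 counts (61.3 CPM and 122 CPM, log2 ratio 0.99, 0.84 to 1.16). SNORA69, from the ribosomal protein gene RPL39, had 63 and 244 counts (9.77 CPM and 18.6 CPM, log2 ratio 0.92, 0.52 to 1.35). SNORA21, from the ribosomal protein gene RPL23, had 611 and 2330 counts (94.7 CPM and 178 CPM, log2 ratio 0.91, 0.78 to 1.04). It had the most counts of the 9 in both libraries and moved from place 9 to place 4 among the member rows. The 9 members have a GC content of 32.8% to 48.5%, with a median of 38.8%, and the other rows past the filter have a median of 48.5%. Across the 94 rows, which share the same libraries, Spearman's rho of the ratio was -0.35 with GC content, 0.04 with length and 0.01 with mean level, and the part of base composition in the ratios was not tested.

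At the other end, SNORA79 had 88 counts in normoxia (13.6 CPM) and 118 in hypoxia (9.00 CPM), a log2 ratio of -0.59 (-1.01 to -0.19). SNORA54, from an intron of the histone chaperone gene NAP1L4, had 116 and 177 counts (17.99 CPM and 13.5 CPM, log2 ratio -0.41, -0.76 to -0.06). SNORA2B had 64 and 100 counts (-0.37, -0.85 to 0.10) and SNORA2C 124 and 196 counts (-0.36, -0.70 to -0.03), both from introns of KANSL2. The abundant SNORA8 was at -0.34 (-0.48 to -0.21), and of these members it has the narrowest interval. SNORA17B from SNHG7 had 128 and 208 counts (-0.32, -0.65 to 0.01), SNORA65 from RPL12 had 262 and 434 (-0.29, -0.52 to -0.07) and SNORA9 from SNHG15 had 140 and 236 (-0.27, -0.58 to 0.04). For SNORA65 the second row with the same sequence had 122 and 262 counts and a ratio of 0.08 (-0.24 to 0.40), so the value of that gene depends on the row.

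Among the scaRNAs past the filter, none was called, beside 5.74% of all features called higher and 3.29% called lower, and the count is too small to set apart from these shares. SCARNA1, from PPP1R8, had 82 and 268 counts (12.7 CPM and 20.4 CPM, log2 ratio 0.68, 0.32 to 1.06) and SCARNA14, from TIPIN, 141 and 456 (21.9 CPM and 34.8 CPM, 0.66, 0.39 to 0.95). SCARNA16 had 274 and 803 counts (0.53, 0.33 to 0.73) and SCARNA13 had 222 and 620 counts (0.46, 0.23 to 0.69). These 4 scaRNAs, with H/ACA boxes, had intervals above 0, and SCARNA4 was the only scaRNA with an interval below 0. SCARNA11 (198 and 439 counts, 0.12), SCARNA15 (151 and 292, -0.07) and SCARNA20 (97 and 177, -0.15) had intervals that held 0. Of the scaRNAs below the filter, SCARNA3 (29 and 101 counts, 0.75, 0.17 to 1.43) and SCARNA23 (23 and 86 counts, 0.84, 0.20 to 1.61) had intervals above 0, and SCARNA18 (31 and 74 counts, 0.22), SCARNA8 (20 and 59, 0.51), SCARNA22 (26 and 50, -0.077) and SCARNA21 (6 and 17, 0.40) had intervals that held 0.

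The mixed scaRNAs carry a guide of each kind, and SCARNA10, also called U85, is known to guide both kinds of modification of the U5 snRNA. SCARNA10 had 186 and 431 counts (28.8 CPM and 32.9 CPM, log2 ratio 0.19, -0.06 to 0.44). SCARNA6 had 256 and 560 counts (0.10, -0.11 to 0.32), SCARNA5 76 and 202 (0.38, -0.0011 to 0.79), and SCARNA12 58 and 126 (0.09, -0.36 to 0.57). All 4 intervals held 0. SCARNA7, with C/D boxes alone, had 425 and 859 counts (65.9 CPM and 65.5 CPM, -0.01, -0.18 to 0.16). Of the lists of scaRNAs by box, 8 of 14 H/ACA, 4 of 4 mixed and 1 of 3 C/D scaRNAs passed the filter, and SCARNA9, also on the C/D list, was not analysed here.

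Members within 1 host gene are known to share its transcript, and their ratios differed in some hosts and lay close together in others. EIF4A2 hosts SNORA81 (2.21), SNORA63 (170 and 410 counts, 0.24, -0.02 to 0.51) and SNORA4 (462 and 1028 counts, 0.13, -0.03 to 0.29), and the interval of SNORA81 did not overlap those of the other 2. Of the TAF1D group, which has 6 members in the table, 4 passed the filter and 1 was called higher, beside 5.74% of all features. Among these 4, SNORA32 (1.40) and SNORA8 (-0.34) lay at the ends, and SNORA25 (130 and 338 counts, 0.35, 0.06 to 0.66) and SNORA18 (374 and 917 counts, 0.27, 0.09 to 0.45) lay between them. Below the filter were SNORA40 (46 and 71 counts, -0.39, -0.95 to 0.17) and SNORA1 (14 and 30 counts, 0.07, -0.88 to 1.10). The summed TAF1D group was at 0.04 (-0.05 to 0.14). In the MATR3 locus, SNORA74A (1.01) stood against SNORA74D (225 and 445 counts, -0.04, -0.27 to 0.20), and these RNAs share 52.8% of aligned bases.

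In contrast, both members from the ribosomal protein gene RPL27A, SNORA3A (373 and 696 counts) and SNORA3B (152 and 284), were at -0.12. Both from RPS2, SNORA10 (651 and 1150 counts, -0.20, -0.34 to -0.06) and SNORA64 (642 and 1090 counts, -0.26, -0.40 to -0.12), lay below 0. Both from RPSA lay above it, SNORA6 at 0.79 (481 and 1698 counts, 0.65 to 0.94) and SNORA62 at 0.52 (222 and 650 counts, 0.30 to 0.75). Thus these members from ribosomal protein genes, of which SNORA3B lies in an intron and the other 5 overlap an exon of an annotated isoform, lay on both sides of 0. Over a list of 16 members from translation factor and ribosomal protein hosts, which does not hold every such member, 15 passed the filter, 2 were called higher (SNORA81 and SNORA21), beside 5.74% of all features, and none lower. Of these, 11 were above 0 and the median was 0.23, beside 0.35 for the 94 rows and 0.13 for all features. Counted after the values were seen, over every row whose first host has a symbol starting with RPL, RPS, EIF or EEF, 25 of 32 passed the filter and 5 were called higher (20%, beside 5.74% of all features and 9.57% of the 94 rows), SNORA28, SNORA19 and SNORA69 besides the former 2. Their median was 0.24, and of the 5 members SNORA81 and SNORA28 were called under each of the 5 scalings.

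Over a list of 12 members of SNHG host genes, which are noncoding RNAs known for their snoRNA introns, 8 passed the filter, 1 was called higher (SNORA74A), beside 5.74% of all features, and none lower, and the median was 0.39. That list leaves out SNORA17A (-0.09) and SNORA17B (-0.32) of SNHG7 and SNORA50C of SNHG25 (0.48), among others. Counted after the values were seen, 20 rows have an SNHG gene as first host, of which 11 passed the filter, none was called and the median was 0.30, while SNORA74A has MATR3 as its first host. SNHG12 hosts SNORA16A (440 and 1392 counts, 0.64, 0.48 to 0.80), SNORA44 (130 and 327 counts, 0.30, 0.01 to 0.61) and SNORA61 (184 and 389 counts, 0.06, -0.20 to 0.32). Of the 155 rows with an annotated transcript, 88 lie in an intron of their first host, 51 overlap an exon of an annotated isoform of it, and 16 lie in no gene on the same strand. Reads may be split between near-identical copies, such as SNORA7A (0.53) and SNORA7B (0.57), with 98.6% identity, SNORA24 (0.56) and SNORA24B (0.59), with 93.9%, and SNORA71B (0.21) and SNORA71D (0.47), with 89.6%.

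Some members have hosts known for snoRNA or ribosome biology, and those below were picked after the values were known, from no fixed list, so that their directions stand for no group. DKC1, the gene of dyskerin, hosts SNORA36A, with 36 and 128 counts (5.58 CPM and 9.76 CPM, log2 ratio 0.78, 0.26 to 1.38), and SNORA56, with 13 and 43 counts (0.65, -0.22 to 1.72), and neither passed the filter. NOP56, the gene of a core protein of the C/D class, hosts SNORA51, with 90 and 298 counts (13.9 CPM and 22.7 CPM, log2 ratio 0.70, 0.36 to 1.06). NOL11, which encodes a factor for processing of ribosomal RNA, hosts SNORA38B, with 66 and 208 counts (0.62, 0.23 to 1.05). URB1, which encodes a factor of ribosome biogenesis, hosts SNORA80A, with 29 counts in each library (log2 ratio -0.96, -1.82 to -0.23), which did not pass the filter either. DDX55, which encodes an RNA helicase, hosts SNORA9B, with 92 and 164 counts (-0.19, -0.57 to 0.19). The ratios of these 6 members thus lay on both sides of 0. TCP1, which encodes a subunit of a cytosolic chaperonin, hosts SNORA20, with 129 and 335 counts (0.35, 0.06 to 0.66), and CCT6A, for another subunit, hosts SNORA15, with 61 and 127 counts (0.03, -0.42 to 0.50).

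Just under the size rule stood SNORA58B (131 and 465 counts, 20.3 CPM and 35.5 CPM, log2 ratio 0.80, 0.52 to 1.09), from UBAP2L. SNORA13, from the noncoding gene EPB41L4A-AS1, had 95 and 337 counts (14.7 CPM and 25.7 CPM, log2 ratio 0.79, 0.47 to 1.15). SNORA46 and SNORA50A both lie in introns of CNOT1, a gene of the main deadenylase complex, with 80 and 266 counts (0.70, 0.34 to 1.09) and 423 and 1073 counts (0.32, 0.16 to 0.48). Their intervals overlapped. SNORA53, with 249 bases the longest SNORA RNA listed, had 197 and 608 counts (0.60, 0.37 to 0.84). SNORA66, from RPL5, had 284 and 734 counts (44.0 CPM and 56.0 CPM, log2 ratio 0.34, 0.15 to 0.55).

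**Figure D4:**
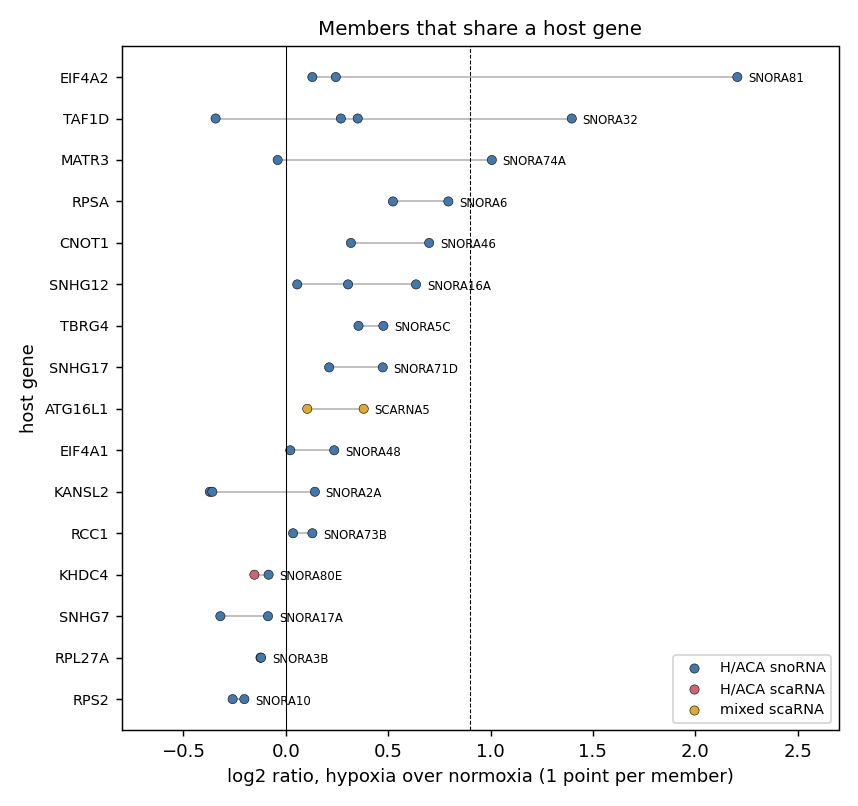
Log2 ratio of hypoxia over normoxia (x axis) for members that share a host gene (y axis), 1 point per member past the filter, coloured by subclass, with the member of the highest ratio named. The dashed line marks 0.9; the points of EIF4A2, TAF1D and MATR3 are spread widely, from 0.13 to 2.21 in EIF4A2, while the 2 points of RPL27A fall together at -0.12.

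For the members printed above with a miRNA in capitals, the table also lists the miRNA itself, as a row of its own at the same place. miR-1248 had 17 counts in normoxia and 101 in hypoxia (2.64 CPM and 7.70 CPM), a log2 ratio of 1.48 (0.80 to 2.38), and SNORA81 around it was at 2.21. Both were higher in hypoxia, but it is not stated how reads that fit both rows were counted, so the pair is not a pair of independent values. miR-664-3p (miR-664a-3p in RefSeq) had 252 and 620 counts (39.1 CPM and 47.3 CPM, 0.27, 0.06 to 0.49) and miR-664-5p 3 and 20 counts (1.37, -0.04 to 4.11). SNORA36B around them had 16 and 127 counts (2.48 CPM and 9.68 CPM, log2 ratio 1.88, 1.21 to 2.81) and did not pass the filter on the mean. The reads of the 3p arm were thus more numerous than those of its whole snoRNA row in both libraries.

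miR-1291 had 93 and 171 counts (14.4 CPM and 13.0 CPM, -0.14, -0.52 to 0.23), and SNORA2C around it was at -0.36. miR-3651 had 8 and 27 counts (0.65, -0.45 to 2.08), and SNORA84 around it had 69 and 124 counts (-0.17, -0.61 to 0.27). Of the 5 members listed for a miRNA overlap, 3 passed the filter and 1, SNORA81, was called higher, beside 5.74% of all features. SNORA56 was listed for miR-664b, but the search did not find that miRNA in its sequence, and other members were not searched for it. SNORA56 had 13 and 43 counts and did not pass.

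Rows with few counts made up much of the class. Below the filter, the lowest values with an interval under 0 included SNORA80A (29 counts in each library, 4.50 CPM and 2.21 CPM, log2 ratio -0.96, -1.82 to -0.23) and SNORA71E (21 and 18 counts, -1.13, -2.24 to -0.27). Of the 177 rows, 40 had fewer than 20 counts over both libraries, 7 were at 0 in normoxia and 1, SNORA29, was at 0 in hypoxia with 4 counts in normoxia. No row at 0 in one library had 20 counts or more in the other. Of the 177 rows, 22 are second entries, with identifiers that start with FR, of a sequence and place already listed. These held 171 and 356 counts in all, with 0.17% to 55.2% of the counts of the entry they repeat (median 0.879%). The highest share was that of SNORA65, and each of the other second entries had at most 21 counts over both libraries. For 3 pairs of members with identical sequence at 2 places, SNORA15B-1 and SNORA15B-2 among them, the counts were equal in both libraries. In addition, 9 rows without a name overlap a member and hold 74 and 266 counts that are not part of the sums.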

How the data were processed

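Small RNA of A549 cells was sequenced on the SOLiD platform, 1 library for each condition. Deposited by the authors were raw read counts per small RNA feature, not normalized, with a sequence and an hg19 position for each (hg19 per the submitters' processing notes). The methods name LifeScope and miRBase for SOLiD small RNA data without naming this experiment, and how reads that match several rows were counted is not stated in the available sources.

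Names, strands and hosts came from GENCODE version 29 (GRCh38), matched by identifier or sequence and never by position, and mature miRNAs from RefSeq. From the counts, shares with Clopper-Pearson intervals and log2 ratios with exact conditional binomial intervals (95%) were computed, with a prior count of 2, a mean log2 CPM above 3 and a log2 ratio of at least 0.9 as the size rule. The study's RNA sequencing used these thresholds for down-regulated genes, and here they were applied in both directions. Python version 3.11.15, pandas version 2.3.3, scipy version 1.17.1 and Biopython version 1.88 were used, and edgeR version 4.0.16 (TMM) and DESeq2 version 1.42.0 (size factors) in R version 4.3.3 for scaling alone. The calculation was tested on simulated data at the depth of the real libraries.

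The depth was 6449337 counts in normoxia and 13115226 in hypoxia. The libraries were grouped by their labels. The rule for naming took the 10 most abundant members of each library, the 8 highest and 8 lowest ratios past the filter, each member past the size rule, each SCARNA past the filter and the members of the lists. SNORA58B, SNORA13 and other members named with a host or copy, or for few counts, were added after their values were seen. Members, lists and rules were chosen with earlier results of these data known. The alternatives changed scaling, prior count, filter, size, depth and membership. Mature miRNAs and other classes were used as denominators or comparison only.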

Additional observations from a re-analysis of the deposited data

How the results depend on the processing

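No paired analysis was possible because there is 1 library per condition, and no library could be left out for the same reason. The share of all counts was 1.11% in normoxia and 1.24% in hypoxia without the 10 most abundant features, 1.40% and 1.48% without mature miRNAs, 0.414% and 0.501% without C/D scaRNAs, and 0.415% and 0.502% with each name or sequence counted once. The share of snoRNA counts was 8.18% and 8.38% without C/D scaRNAs and 7.14% and 7.48% without SNORA73A. The summed log2 ratio was 0.032 with snoRNA scaling, 0.16 with TMM, 0.17 with DESeq2 size factors, 0.37 with miRNA scaling and 0.31 without SNORA73A, and stayed above 0 in each. For the SNORA rows it was 0.045, 0.17, 0.19 and 0.38 under these 4 scalings. H/ACA scaRNAs turned to -0.0525 with snoRNA scaling and were at 0.075 with TMM, 0.088 with DESeq2 and 0.28 with miRNA scaling. Mixed scaRNAs turned to -0.062 with snoRNA scaling. C/D scaRNAs turned to -0.20 with snoRNA scaling, -0.072 with TMM and -0.058 with DESeq2. The TMM, DESeq2 and miRNA scalings of subclasses were chosen after seeing the data.

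Members called higher numbered 3 with snoRNA scaling (3.19%, beside 2.68% of all features), 4 with TMM (4.26%, beside 3.84%), 6 with DESeq2 size factors (6.38%, beside 4.09%), 6 with a log2 ratio of at least 1 (6.38%, beside 4.09%), 7 with a mean CPM of at least 20 (11.5%, beside 5.61%), 7 with thinning (7.61%, beside 5.84%) and 17 with no filter (9.6%, beside 18.1%). With no filter, 6 of the 177 rows were called lower, beside 7.09% of all features. With miRNA scaling they numbered 9 (9.57%, beside 7.99%), as with a prior count of 0.5 (9.68%, beside 5.82%). Of 558 values of the 93 members named or held in a list under other settings of scaling, prior count or depth, 518 stayed within the counting interval and 39 changed sign, none of a called member. No test was made of what moved these values. At this depth the smallest members cannot be ranked, and without replicates the difference between cultures is not known.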
